A study of Mus musculus with 48 samples.

Results

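The genes described here are 28 genes of inhibitory transmission: those for GABA synthesis, vesicular loading, uptake and breakdown, subunits of the GABA-A and GABA-B receptors, glycine receptor subunits, and scaffold and trafficking proteins of the inhibitory synapse. They were chosen by symbol from the 48795 genes of the count table, and all 28 were among the 19714 genes with enough counts to be tested. RNA-seq had been run on the striatum of 48 mice of 6 genotypes, with 8 mice (4 females and 4 males) per genotype. The genotypes were Q140, Q140 x Msh3+/-, Q140 x Msh3-/-, Msh3+/-, Msh3-/- and wild type (WT). Q140 mice carry an expanded CAG repeat knocked into the mouse huntingtin gene Htt and serve as a model of Huntington's disease; the labels give them as heterozygous, so that each keeps an unexpanded Htt allele. Msh3 encodes a mismatch repair protein, known for driving further expansion of such repeats in somatic cells, and the crosses ask whether its loss alters the Q140 effect. Every mouse is given as C57BL/6, with no substrain. The age is 12 months in the sample labels and the design text, while the extraction protocol gives 6 months.

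GABA is made from glutamate by the enzymes encoded by Gad1 and Gad2, loaded into vesicles by the Slc32a1 product, taken up again by transporters such as those of Slc6a11 and Slc6a13, and broken down by the products of Abat and Aldh5a1. It opens the chloride channels of GABA-A receptors, which are pentamers of alpha, beta and other subunits, and signals through the G protein-coupled GABA-B receptor. Receptors at synapses carry brief currents, whereas receptors outside synapses, many of them with alpha 4 and delta or with alpha 5 subunits, carry a lasting tonic current; the striatum's main cells, the spiny projection neurons, are themselves GABAergic and carry both.

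Libraries held 38.9 to 60.9 M reads counted in genes, with a median of 47.3 M. Levels are given as CPM, read counts relative to the library total after scaling by the trimmed mean of M values (TMM), where one gene is compared between mice, and as the deposited FPKM, which is per gene length, where genes are compared with each other. Counts assigned to Msh3 were higher, not lower, in mice labelled as lacking Msh3 alleles: they ran from 68.4 to 81.5 CPM in the Q140 x Msh3+/- mice and from 103 to 126 CPM in the Q140 x Msh3-/- mice, against 28.5 to 32.5 CPM in Q140 mice and 26.4 to 30.9 CPM in WT mice. Whole-gene counts do not show which part of the gene is deleted, so the Msh3 genotypes below are the labelled ones. On the first principal component of the residuals, 4 libraries stood apart (1 Q140 x Msh3+/-, 1 Q140 x Msh3-/- and 2 Msh3-/-), and where leaving them out changed a call it is said beside that result. The summed level of 14 spiny projection neuron markers was 7710 to 8602 CPM in Q140 mice, 8540 to 10183 CPM in Q140 x Msh3+/- mice and 9740 to 12461 CPM in Q140 x Msh3-/- mice, against 13154 to 14614 CPM in WT mice. In such bulk tissue, fewer cells of a type and less RNA per cell cannot be told apart. None of the markers of any cell type list was at 0: each averaged at least 0.1 CPM in every genotype.

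Of the 5 receptor subunit genes called in Q140 minus WT striatum, Gabrd had no entry in the promoter table, and Gabrb2, with 3 entries, is not shown. Promoters are shown for the other 3, Gabra4, Gabra5 and Glra2. They are RefSeq sequences of build GRCm38.p6, from 250 bases before to 50 bases after the annotated start, read 5′ to 3′ along the gene's own strand. Capitals mark a GC box (GGGCGG, seen here on the opposite strand as CCGCCC) or a TATA box (TATAAA, seen here on the opposite strand as TTTATA).
Gabra4, chr5:71658259-71658558, minus strand: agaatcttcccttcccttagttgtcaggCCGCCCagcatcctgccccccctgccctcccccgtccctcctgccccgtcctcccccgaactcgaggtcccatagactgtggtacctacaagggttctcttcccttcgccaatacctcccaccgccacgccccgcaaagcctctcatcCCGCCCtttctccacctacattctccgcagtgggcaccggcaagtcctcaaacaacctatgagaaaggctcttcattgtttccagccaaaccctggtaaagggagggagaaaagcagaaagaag
Gabra5, chr7:57510010-57510309, minus strand: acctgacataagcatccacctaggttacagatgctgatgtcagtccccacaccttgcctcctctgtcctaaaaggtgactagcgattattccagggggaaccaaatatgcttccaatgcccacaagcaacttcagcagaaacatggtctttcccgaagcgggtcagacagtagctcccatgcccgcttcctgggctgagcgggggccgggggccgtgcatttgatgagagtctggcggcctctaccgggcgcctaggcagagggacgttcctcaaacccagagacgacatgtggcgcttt
Glra2, chrX:165327344-165327643, minus strand: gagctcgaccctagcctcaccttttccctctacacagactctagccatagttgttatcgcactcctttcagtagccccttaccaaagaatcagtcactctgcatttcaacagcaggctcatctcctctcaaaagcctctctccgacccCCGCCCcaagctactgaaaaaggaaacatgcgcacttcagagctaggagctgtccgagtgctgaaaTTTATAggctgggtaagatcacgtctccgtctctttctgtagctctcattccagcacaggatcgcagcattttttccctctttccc
Gabra4 had 2 GC boxes and Glra2 had 1, with a TATA box letter match as well, while the Gabra5 window had neither motif. Searched on both strands, the GC box lay in 18 of the 32 promoters found for 26 of the 28 genes, against 35.7% of the 32851 promoters in the table, and the TATA box in 5 of 32, against 13.6%. The median GC content was 59.5% for the promoters of the 28 genes and 52.7% for all promoters. The cyclic AMP response element TGACGTCA and the E-box CACGTG were in none of the 32, against 1.8% and 7.2% of all promoters, and the EGR motif GCGNGGGCG was in 5, against 5.6%. A match or its absence describes these windows only.

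**Figure D1:**
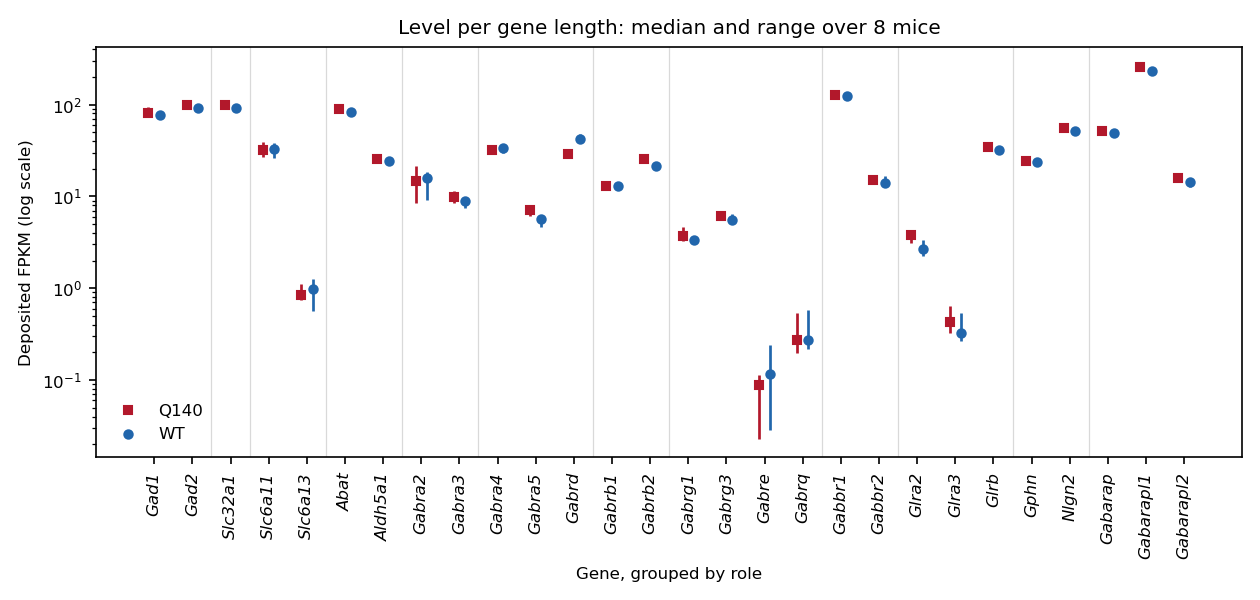
Deposited FPKM (log scale) of the 28 genes, grouped by role, in Q140 and WT striatum; markers are medians and lines the range over 8 mice per genotype. Gabarapl1 and Gabbr1 lie at the top, the synthesis genes and Gabrd well above Gabra5, and Gabre at the bottom.

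Per gene length, WT striatum expressed the synthesis and loading genes at several times the level of most receptor subunits. Slc32a1 averaged 91.7 ± 5.17 FPKM, Gad2 91.7 ± 3.91 FPKM, Abat 84.0 ± 2.49 FPKM and Gad1 77.1 ± 4.60 FPKM (SD, n = 8 WT mice), and their neighbouring ranges overlapped. Above them stood only Gabbr1, which encodes the ligand-binding subunit of the GABA-B receptor, at 125 ± 4.10 FPKM, and Gabarapl1, a trafficking and autophagy gene related to the GABA-A receptor-associated protein, at 235 ± 7.15 FPKM; the ranges of these genes did not overlap each other or those below. The plot of FPKM by role shows these levels together with those of Q140 striatum.

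Among the GABA-A subunits of the list, the delta subunit gene Gabrd had the highest FPKM in WT striatum, 43.6 ± 2.66, followed by Gabra4 at 33.2 ± 1.94, Gabrb2 at 21.7 ± 0.858, Gabra2 at 15.0 ± 3.89 and Gabrb1 at 12.97 ± 0.699 (SD, n = 8 WT mice). The ranges of Gabrd and Gabra4 did not overlap, and neither did those of Gabra4 and Gabrb2, whereas the wide range of Gabra2 took in that of Gabrb1. Gabra3 averaged 8.92 FPKM, Gabrg3 5.69 FPKM, Gabra5 5.50 FPKM and Gabrg1 3.36 FPKM, where only the ranges of Gabrg3 and Gabra5 overlapped. Gabrq and Gabre, genes of the theta and epsilon subunits, were lowest at 0.325 and 0.122 FPKM. Of the glycine receptor genes, the beta subunit gene Glrb, which links the receptor to gephyrin, was at 32.3 ± 0.974 FPKM, against 2.65 ± 0.346 FPKM for the alpha 2 gene Glra2 and 0.352 ± 0.0936 FPKM for the alpha 3 gene Glra3 (SD, n = 8 WT mice). The scaffold genes Nlgn2, for the adhesion protein neuroligin 2, and Gphn, for gephyrin, averaged 51.0 and 24.0 FPKM.

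With TMM scaling, Q140 striatum differed from WT striatum in the 3 extrasynaptic GABA-A subunit genes and in 3 other genes of the list. Gabrd fell to 63.8% of the WT mean, Gabra4 fell to 90.3%, and Gabra5 rose to 125%. Outside these 3, the beta 2 subunit gene Gabrb2, the glycine receptor gene Glra2 and the trafficking gene Gabarapl2 rose, and none of the 7 genes of synthesis, loading, uptake and breakdown passed. In all, 4 of the 28 genes rose and 2 fell (edgeR adjusted p under 0.05), 21.4% of the list, while 33% of all genes tested were called (17% up and 16% down). The share for the list was thus below that of all genes. Its median log2 fold change was 0.02, and that of all genes was -0.00. Scaled by library totals in place of TMM, 13 of the 28 rose and 1 fell, and over all genes 5773 rose and 2063 fell, against 3358 and 3148 with TMM; that scaling moved the median of all genes to 0.06.

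**Figure D2:**
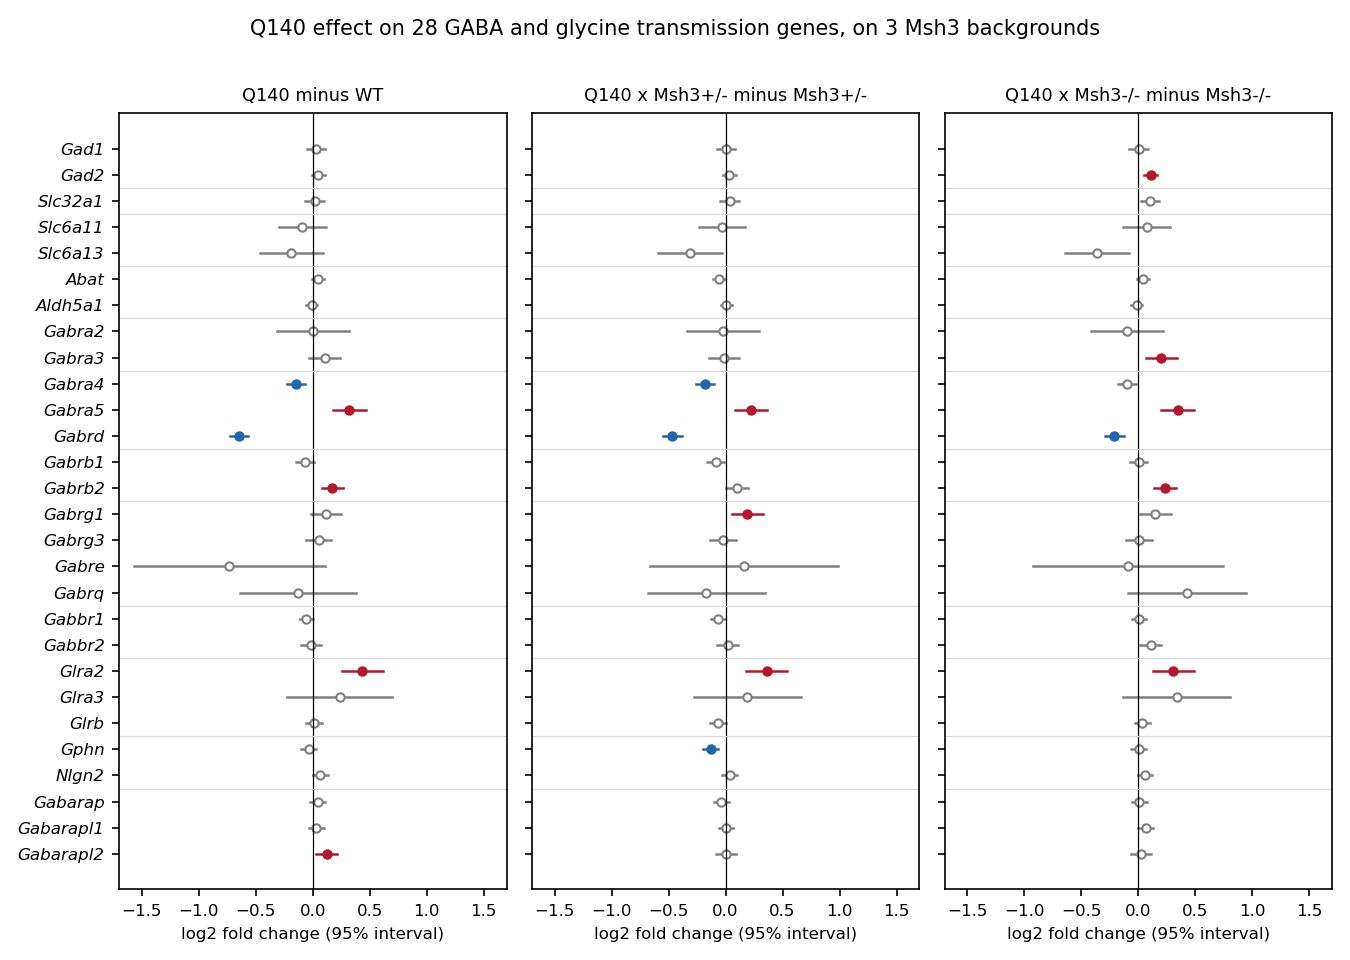
Log2 fold change with 95% interval of each of the 28 genes, in Q140 minus WT, Q140 x Msh3+/- minus Msh3+/- and Q140 x Msh3-/- minus Msh3-/- striatum; filled red or blue points passed an edgeR adjusted p of 0.05 and open grey points did not, and lines separate roles. Gabrd lies left of 0 in each panel, and Gabra5 and Glra2 right of it.

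Gabrd encodes the delta subunit, which takes the place of a gamma subunit in extrasynaptic receptors and gives them high GABA sensitivity. Its level in Q140 mice was 75.0 CPM at the lowest, 82.3 CPM at the median and 86.9 CPM at the highest, against 119 CPM, 126 CPM and 141 CPM in WT mice. All 8 Q140 mice lay below the lowest WT mouse. It fell by 0.65 on the log2 scale (SE 0.04, 95% interval -0.73 to -0.57, edgeR adjusted p = 1.09e-18), and it was the only one of the 28 genes whose Q140 and WT ranges did not overlap; 8.97% of all genes tested had ranges that did not. Over all processing alternatives its log2 fold change stayed between -0.66 and -0.58. Over the same mice 12 of 14 spiny projection neuron markers fell and 1 rose, where 16% of all genes tested fell and 17% rose. The mean sum of these markers was 58.8% of the WT mean, and its part in the Gabrd result was not tested.

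Gabra4 encodes the alpha 4 subunit, the usual partner of delta in the forebrain. It was at 173 CPM at the lowest, 188 CPM at the median and 199 CPM at the highest in Q140 mice, against 183 CPM, 207 CPM and 225 CPM in WT mice. Every Q140 mouse lay below the WT mean, but only 2 of the 8 lay below the lowest WT mouse. The fall of 0.15 on the log2 scale (SE 0.04, edgeR adjusted p = 0.00231) was small beside that of Gabrd, and with library totals it was 0.08 and missed the threshold (adjusted p = 0.0764). The first exon of Gabra4 overlaps that of Gabrb1 on the opposite strand over 196 bases (Gabra4 at chr5:71569749-71658308, minus strand, and Gabrb1 at chr5:71658113-72149037, plus strand, GRCm38). The library kit was stranded, but the counting setting is not given in the sources used here. Whether reads of this overlap were counted for Gabra4, for Gabrb1, for both or for neither is thus not known.

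Gabra5, at chr7:57407672-57510059 on the minus strand (GRCm38), encodes the alpha 5 subunit of another extrasynaptic receptor type. Its level was 17.4 CPM at the lowest, 20.6 CPM at the median and 23.3 CPM at the highest in Q140 mice, against 14.1 CPM, 17.2 CPM and 17.7 CPM in WT mice. In Q140 striatum 7 of 8 mice exceeded the highest WT mouse. It rose by 0.32 on the log2 scale (SE 0.07, edgeR adjusted p = 0.00027). Thus the 3 extrasynaptic genes did not move in 1 direction: both alpha 4 and delta fell, and alpha 5 rose, although alpha 4 passed only with scalings other than library totals. An exon of Gabra5 overlaps an antisense gene, Gm9962, to which the same limit on strand applies. The marker sum of cortical excitatory neurons, a cell type that expresses Gabra5, was 44.4 to 57.1 CPM in Q140 mice and 44.3 to 60.6 CPM in WT mice, and these ranges overlapped.

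**Figure D3:**
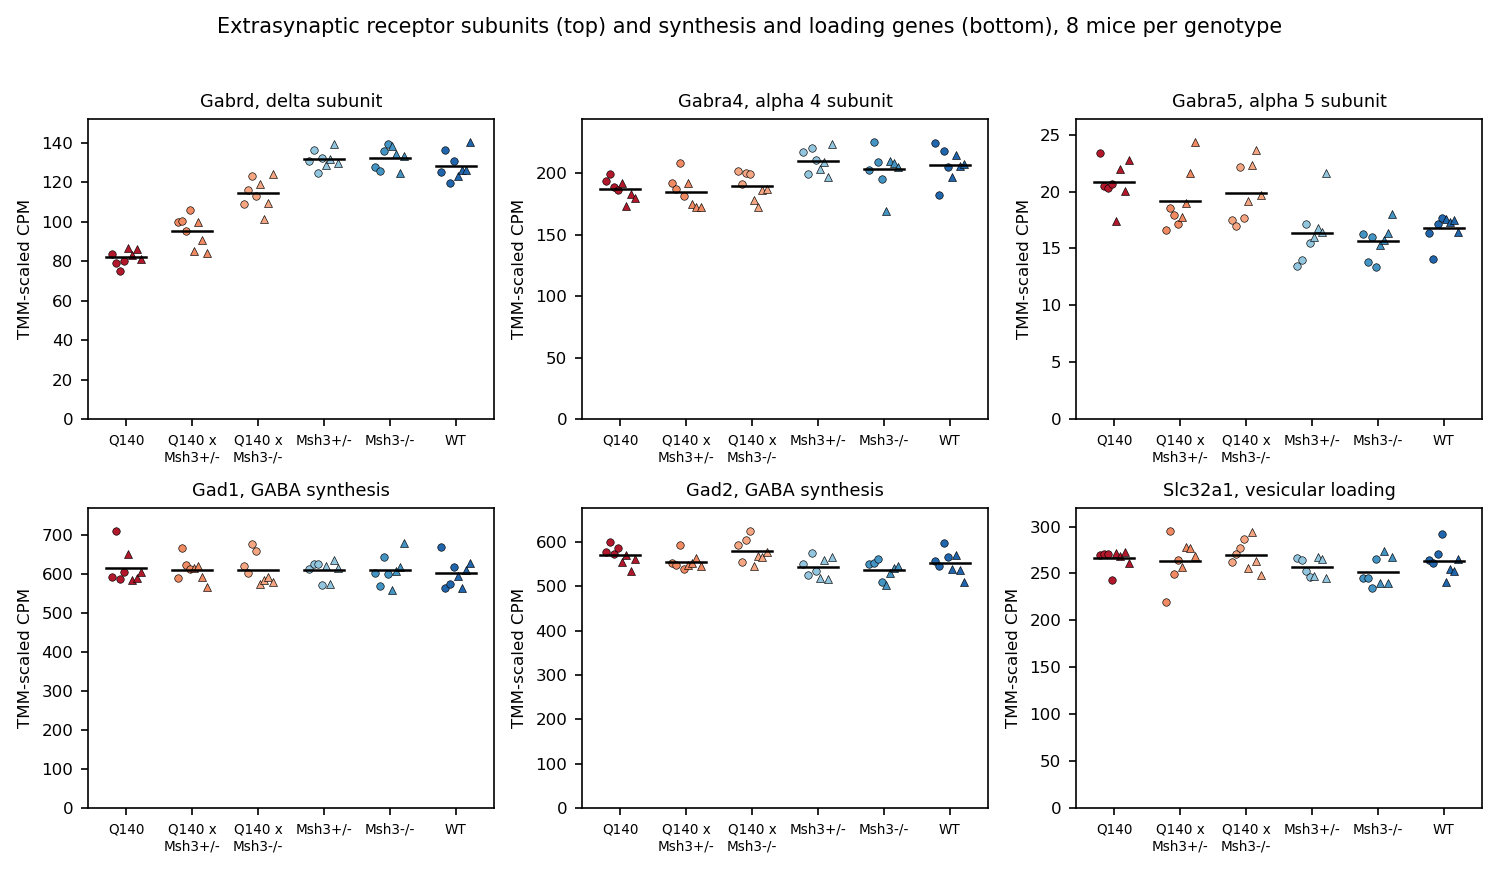
TMM-scaled CPM in each of the 48 mice, for 3 extrasynaptic subunit genes (top) and 3 genes of GABA synthesis and loading (bottom); circles are females, triangles males and bars the genotype means. Gabrd steps up with each Msh3 allele labelled as lost among the Q140 genotypes, while the synthesis genes overlap throughout.

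Of the genes for the synaptic subunits alpha 2 and alpha 3, neither passed. Gabra3 had a log2 fold change of 0.10 (SE 0.07, edgeR adjusted p = 0.249) in Q140 minus WT striatum, and 0.17 with library totals, where it passed. For Gabra2 the estimate was -0.00 with a 95% interval of -0.32 to 0.32, wide enough to hold a change of the size seen for Gabra4 or Gabrb2 in either direction. Within genotypes Gabra2 varied more than the other alpha subunit genes, with a median coefficient of variation of 18.9%, against 5.95% for Gabra4.

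The synthesis and loading genes did not pass with TMM. Gad1 was at 585 CPM at the lowest, 598 CPM at the median and 711 CPM at the highest in Q140 mice, against 564 CPM, 604 CPM and 669 CPM in WT mice. Gad2 was at 535 CPM, 571 CPM and 600.5 CPM in Q140 mice, against 509 CPM, 551 CPM and 596 CPM in WT mice. The ranges of each gene overlapped for most of their length. The 95% intervals of the log2 fold change were -0.05 to 0.11 for Gad1, -0.01 to 0.10 for Gad2 and -0.07 to 0.10 for Slc32a1, so that a change of the size of Gabrd lay outside each. With library totals Gad1 was higher by 0.10 (adjusted p = 0.0395) and Gad2 by 0.11, both past the threshold. An antisense gene overlaps an exon of Slc32a1. A list of 11 markers of striatal interneurons holds Chat and Slc5a7, which mark cholinergic cells, beside markers of cells that make GABA. Of these 11, 5 fell and none rose, where 16% of all genes tested fell. Their sum was 455 to 487 CPM in Q140 mice and 515 to 545.5 CPM in WT mice, without overlap. The part of these and of the spiny projection neuron markers in the values of Gad1, Gad2 and Slc32a1 was not tested.

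Breakdown and uptake genes also did not pass with TMM. Abat, for GABA transaminase, had a log2 fold change of 0.04 (SE 0.03), but passed at 0.11 with library totals, and Aldh5a1, for succinic semialdehyde dehydrogenase, -0.01 (SE 0.02). Slc6a11, whose product is an astrocytic GABA transporter, had -0.09 (SE 0.10), and Slc6a13, known from meninges and blood vessels, had -0.19 (SE 0.14). Slc6a13 was at 2.07 to 3.13 CPM in Q140 mice and 1.69 to 3.70 CPM in WT mice, ranges that overlapped. In the same mice 5 of 10 astrocyte markers, 8 of 9 endothelial and mural markers and 2 of 7 leptomeningeal markers fell and none rose. Of all genes tested, 16% fell and 17% rose. The part of these markers in the uptake genes was not tested. The summed astrocyte markers were 4130 to 4434 CPM in Q140 mice and 4766 to 5212 CPM in WT mice. Endothelial and mural markers summed to 248 to 270 CPM in Q140 mice and 291 to 362 CPM in WT mice, and leptomeningeal markers to 30.2 to 43.3 CPM in Q140 mice and 36.8 to 51.4 CPM in WT mice, where only the leptomeningeal ranges overlapped.

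Gabrb2 encodes the beta 2 subunit. It was at 143 CPM at the lowest, 158 CPM at the median and 175 CPM at the highest in Q140 mice, against 131 CPM, 142 CPM and 150 CPM in WT mice. In Q140 striatum 6 of 8 mice exceeded the highest WT mouse, and the rise was 0.17 on the log2 scale (SE 0.05, edgeR adjusted p = 0.00362). Gabrb1, the beta 1 subunit gene, had -0.07 (SE 0.04) and did not pass. Neither did the gamma subunit genes Gabrg1 (0.11, SE 0.07) and Gabrg3 (0.05, SE 0.06) or the scarce Gabre (-0.73, SE 0.42) and Gabrq (-0.13, SE 0.25), whose intervals were wide. With library totals Gabrg1 passed at 0.18.

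Glra2, at chrX:165129017-165327393 on the minus strand (GRCm38), encodes the alpha 2 subunit of the glycine receptor, the form that spiny projection neurons use for tonic glycine currents. It was at 9.52 CPM at the lowest, 11.5 CPM at the median and 12.8 CPM at the highest in Q140 mice, against 7.21 CPM, 8.66 CPM and 10.9 CPM in WT mice. In Q140 striatum 6 of 8 mice exceeded the highest WT mouse. The rise of 0.43 on the log2 scale (SE 0.09, edgeR adjusted p = 0.000117) was 1.35-fold. Glra3 had 0.24 (SE 0.23) and Glrb 0.01 (SE 0.03), and neither passed, although Glrb passed at 0.08 with library totals.

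Of the genes for GABA-B subunits, scaffolds and the trafficking family, only Gabarapl2 passed. GABA-B subunit genes had a log2 fold change of -0.06 (SE 0.03) for Gabbr1 and -0.02 (SE 0.04) for Gabbr2. Gphn had -0.04 (SE 0.03), and Nlgn2 had 0.07 (SE 0.03, edgeR adjusted p = 0.11). Nlgn2 was the only gene of the list that had an unadjusted p under 0.05 without passing, and it passed at 0.10 when the 4 mice with another name prefix (2 Q140 and 2 WT) were left out and at 0.13 with library totals. Gabarapl2 was at 33.7 CPM at the lowest, 36.0 CPM at the median and 40.0 CPM at the highest in Q140 mice, against 29.8 CPM, 33.9 CPM and 36.2 CPM in WT mice, with 3 Q140 mice above the highest WT mouse. It rose by 0.12 (SE 0.04, edgeR adjusted p = 0.0308), while Gabarap (0.04, SE 0.03) and Gabarapl1 (0.03, SE 0.03) did not pass; with library totals both passed, at 0.11 for Gabarap and 0.10 for Gabarapl1.

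Q140 mice labelled as lacking Msh3 alleles had a higher level of Gabrd than Q140 mice, and few of the other genes of the list passed the test. In Q140 x Msh3-/- mice Gabrd was at 102 CPM at the lowest, 114 CPM at the median and 124 CPM at the highest, against 75.0 CPM, 82.3 CPM and 86.9 CPM in Q140 mice, with no overlap. It rose by 0.48 on the log2 scale (SE 0.04, edgeR adjusted p = 6.36e-13). Of the 28 genes, 1 rose and 1 fell (7.14%), against 16.3% of all genes tested (8.75% up and 7.57% down). Scaled by library totals, 1 of the 28 rose and 3 fell (Gabarapl2, Glra2 and Abat), and over all genes 1283 rose and 2869 fell, against 1725 and 1492 with TMM. The gene that fell with TMM was Gabarapl2, at 32.2 CPM, 33.0 CPM and 33.5 CPM in Q140 x Msh3-/- mice, against 33.7 CPM, 36.0 CPM and 40.0 CPM in Q140 mice, without overlap though by a narrow gap. Its log2 fold change was -0.15 (SE 0.04, edgeR adjusted p = 0.0144). These 2 genes did not overlap between the genotypes, which held for 2.87% of all genes. Over the same mice 13 of 14 spiny projection neuron markers rose and none fell, and their part in the rise of Gabrd was not tested.

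For the other genes called in Q140 minus WT striatum, the difference of Q140 x Msh3-/- minus Q140 did not pass. It was 0.02 (95% interval -0.06 to 0.10) for Gabra4, -0.08 (-0.22 to 0.07) for Gabra5, -0.04 (-0.14 to 0.05) for Gabrb2 and -0.23 (-0.41 to -0.06) for Glra2. Glra2 had an edgeR adjusted p of 0.0626 and passed with DESeq2 and with library totals. It was at 7.28 CPM, 10.2 CPM and 11.7 CPM in Q140 x Msh3-/- mice, against 9.52 CPM, 11.5 CPM and 12.8 CPM in Q140 mice, with overlap. The intervals of Gabra4, Gabra5 and Gabrb2 excluded a rise or fall of the size of the change in Gabrd. The synthesis genes had -0.01 (SE 0.04) for Gad1 and 0.02 (SE 0.03) for Gad2.

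With 1 allele labelled as lost, Gabrd lay between. In Q140 x Msh3+/- mice it was at 84.1 CPM at the lowest, 97.6 CPM at the median and 106 CPM at the highest, and overlapped the Q140 mice only at the lower end. The rise over Q140 was 0.22 (SE 0.04, edgeR adjusted p = 0.00165), and Gabrd was the only one of the 28 genes called (3.57%), against 1.32% of all genes tested (0.842% up and 0.477% down). From there to Q140 x Msh3-/-, it rose by another 0.27 (SE 0.04, edgeR adjusted p = 1.99e-05), again the only gene of the list called, against 3.23% of all genes (2.29% up and 0.938% down). No gene of the list had ranges without overlap in either of these comparisons, against 0.218% and 0.33% of all genes. The 3 Q140 genotypes thus took an order, Q140 lowest and Q140 x Msh3-/- highest, in which each neighbouring pair differed by the test.

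**Figure D4:**
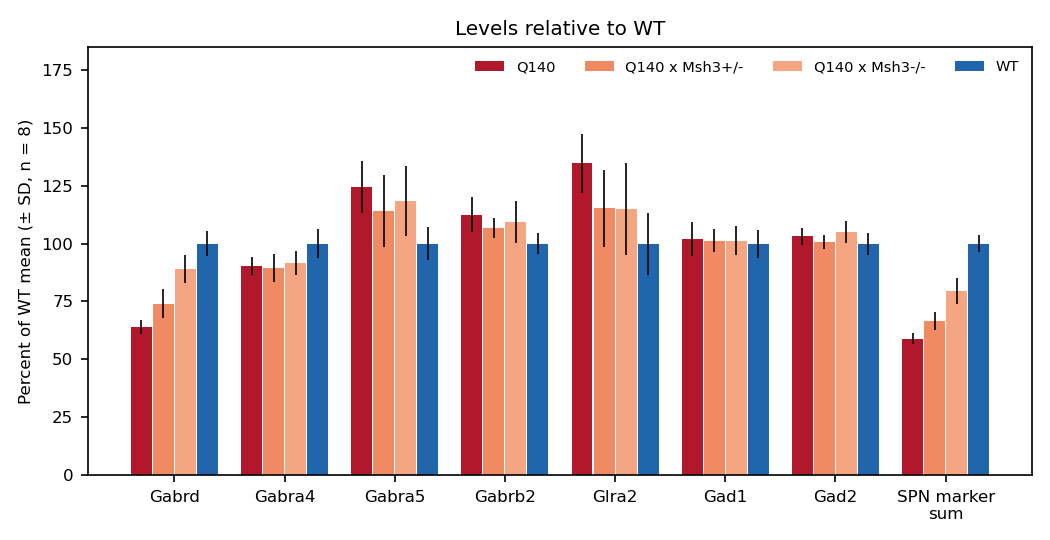
Mean level as a percent of the WT mean (bars, with SD, n = 8 mice each) for 7 genes and for the summed spiny projection neuron (SPN) markers, in the 3 Q140 genotypes and WT. Gabrd is at 63.8, 74.1 and 89.1 percent and the marker sum at 58.8, 66.6 and 79.6 percent, while Gabra4 is between 89.4 and 91.6 percent in all 3.

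The plot of levels relative to WT sets the genes beside each other. Gabra4 was at 90.3%, 89.4% and 91.6% of the WT mean in Q140 mice, in Q140 x Msh3+/- mice and in the Q140 x Msh3-/- mice. Gabra5 was at 125%, 114% and 119%, and Gabrb2 at 113%, 107% and 109%. The summed spiny projection neuron markers stepped with Gabrd, at 58.8%, 66.6% and 79.6% against 63.8%, 74.1% and 89.1%. Whether the 2 steps are linked was not tested.

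Each Q140 genotype was also compared with the non-Q140 genotype of the same Msh3 label, which gives 3 Q140 effects from 3 sets of mice that share no library. Gabrd fell, and Gabra5 and Glra2 rose, in all 3. In Q140 x Msh3+/- minus Msh3+/- striatum 3 genes rose and 3 fell (21.4%), against 21.5% of all genes tested (10.8% in each direction). In Q140 x Msh3-/- minus Msh3-/- striatum 5 rose and 1 fell (21.4%), against 7.86% of all genes (4.01% up and 3.84% down). The genes called in all 3 effects made up 3 of the 6 called in each, and for all genes 1080 were called in the same direction in all 3, which is 16.6% of those called in Q140 minus WT and 69.7% of those called in Q140 x Msh3-/- minus Msh3-/-.

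Gabrd showed a smaller Q140 effect with fewer Msh3 alleles. It was at 84.1 to 106 CPM in Q140 x Msh3+/- mice and 125 to 139 CPM in Msh3+/- mice, a fall of 0.47 on the log2 scale (SE 0.04, edgeR adjusted p = 2.44e-13). It was at 102 to 124 CPM in Q140 x Msh3-/- mice and 125 to 139 CPM in Msh3-/- mice, a fall of 0.21 (SE 0.04, edgeR adjusted p = 0.000357), and neither pair overlapped; ranges that did not overlap were found for 4.6% and 1.09% of all genes in these comparisons. The test of the difference itself, the interaction of Q140 with the Msh3-/- label, gave 0.44 (SE 0.06, edgeR adjusted p = 4.18e-07) for Gabrd and for no other gene of the list (3.57% of the list, against 6.15% of all genes, 4.09% up and 2.06% down). For the Msh3+/- label the interaction was 0.18 (SE 0.06, edgeR adjusted p = 0.274) and did not pass. None of the 28 genes passed that test with edgeR or DESeq2, 2 had an unadjusted p under 0.05 (Gabrd and Abat), and 0.0152% of all genes were called, all of them up.

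The Q140 effect on Gabra5 was 0.22 (SE 0.07, edgeR adjusted p = 0.0172) on the Msh3+/- background and 0.35 (SE 0.07, edgeR adjusted p = 0.000821) on the Msh3-/- background, and the interaction with Msh3-/- was 0.03 (95% interval -0.18 to 0.23). All 8 mice of each Q140 cross lay above the mean of their non-Q140 counterparts. Glra2 rose by 0.36 (SE 0.09, edgeR adjusted p = 0.00218) and by 0.31 (SE 0.09, edgeR adjusted p = 0.0243) on these backgrounds, with an interaction of -0.12 (95% interval -0.38 to 0.13). Intervals of this width hold no change as well as a sizeable one. Gabra4 fell by 0.18 (SE 0.04, edgeR adjusted p = 0.000288) in Q140 x Msh3+/- minus Msh3+/- striatum, and its -0.10 (SE 0.04) on the Msh3-/- background did not pass (edgeR adjusted p = 0.105); it passed there at -0.13 without the 4 libraries that stood apart.

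Other genes were called on a single background, which does not show that they differ between backgrounds. Gabrb2 rose by 0.23 (SE 0.05, edgeR adjusted p = 0.000732) on the Msh3-/- background, as it had in Q140 minus WT striatum, and had 0.10 (SE 0.05) on the Msh3+/- background. Gad2 rose by 0.11 (SE 0.03, edgeR adjusted p = 0.00894) on the Msh3-/- background, where it was at 545 CPM, 573 CPM and 625.2 CPM in Q140 x Msh3-/- mice, against 503 CPM, 543 CPM and 562 CPM in Msh3-/- mice. Of the Q140 x Msh3-/- mice, 6 of 8 exceeded the highest Msh3-/- mouse for Gad2. Gabra3 rose by 0.20 (SE 0.07) there with an adjusted p of 0.0499, a call lost under 5 of the 9 alternatives. On the Msh3+/- background Gabrg1 rose by 0.19 (SE 0.07, edgeR adjusted p = 0.0334), and Gphn fell by 0.13 (SE 0.03, edgeR adjusted p = 0.00256); the Gphn call was lost with library totals, and the Gabrg1 call without the filter on low counts and with plate column as a term.

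Set directly against WT, the Q140 x Msh3-/- mice still differed in 3 of the 28 genes (10.7%), against 6.28% of all genes tested (2.91% up and 3.37% down). Gabrd fell by 0.17 (SE 0.04, edgeR adjusted p = 0.00535), to 89.1% of the WT mean, with overlap of the ranges (102 to 124 CPM in Q140 x Msh3-/- mice, against 119 to 141 CPM in WT mice). Gabra5 rose by 0.25 (SE 0.07, edgeR adjusted p = 0.0231). Gabra4 fell by 0.13 (SE 0.04, edgeR adjusted p = 0.0344), and this call was lost under 5 of the 9 alternatives. Gabrb2 had 0.13 (SE 0.05) and passed at 0.16 without the 4 libraries that stood apart. In Q140 x Msh3+/- minus WT striatum 4 genes fell and 0 rose (14.3%), against 22.1% of all genes (10.8% up and 11.3% down): Gabrd by 0.43, Gabra4 by 0.16, Gabrb1 by 0.12 and Gphn by 0.11, and the last 3 missed the threshold with library totals. Under that scaling 10 genes of the list rose and 1 fell, and over all genes 5096 rose and 1248 fell, against 2126 and 2234 with TMM. Gabra5 had 0.19 (SE 0.07, edgeR adjusted p = 0.0502) and passed under 7 of the 9 alternatives, among them the one without the 4 libraries that stood apart.

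Without Q140, no gene of the list was called by edgeR or by DESeq2 in Msh3-/- minus WT striatum (0.0457% of all genes called with edgeR, 0.0101% up and 0.0355% down) or in Msh3+/- minus WT striatum (0.0101% of all genes). At an unadjusted p under 0.05 there were 2 in the first comparison, Gabra3 (-0.15, SE 0.07) and Gabrb2 (-0.10, SE 0.05), and 0 in the second. Gabrd was at 125 CPM, 131 CPM and 139 CPM in Msh3+/- mice and 125 CPM, 134 CPM and 139 CPM in Msh3-/- mice, against 119 CPM, 126 CPM and 141 CPM in WT mice. The 3 ranges lay over each other, and the 95% interval of the log2 difference in Gabrd from WT was -0.04 to 0.12 for each.

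Females and males differed in Gabra5 alone among the 28 genes (3.57%), against 4.26% of all genes tested (2.61% higher and 1.65% lower in females). Gabra5 averaged 17.3 ± 2.67 CPM in females and 19.0 ± 2.72 CPM in males (SD, n = 24 each), a log2 difference of -0.14 (SE 0.04, edgeR adjusted p = 0.0411). The female mean was the higher one in 1 of 6 genotypes. The call was lost without the filter on low counts and with plate column as a term. With DESeq2, Gad2 (0.05) and Gabra4 (0.07) passed as well, both higher in females. None of the 28 genes had a Q140 effect, or an effect of Q140 x Msh3-/- minus Q140, that differed between the sexes by edgeR or DESeq2 (0 and 1 gene at an unadjusted p under 0.05; 0% of all genes called for each).

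**Figure D5:**
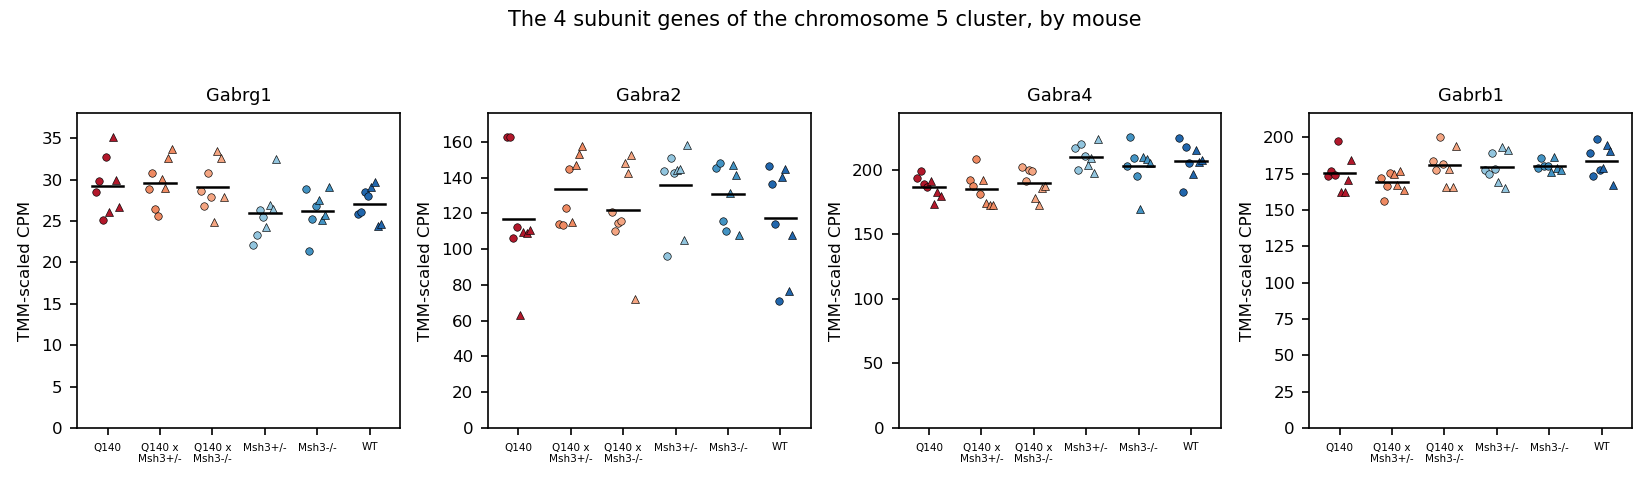
TMM-scaled CPM by mouse for the 4 GABA-A subunit genes of the chromosome 5 cluster, in cluster order; circles are females, triangles males and bars the genotype means. Gabra2 spreads from 63.3 to 163 CPM over the 48 mice, with 4 low mice in 3 genotypes, and its neighbours do not.

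Gabrg1, Gabra2, Gabra4 and Gabrb1 lie side by side on chromosome 5, 35.8 to 36.7 Mb from Htt. The plot of this cluster shows that its genes did not vary alike. Gabra2 ran from 63.3 to 163 CPM over the 48 mice, a 2.58-fold range, against 1.33-fold for Gabra4, 1.28-fold for Gabrb1 and 1.65-fold for Gabrg1. The low Gabra2 values came from 4 mice of 3 genotypes, at 63.3 to 76.4 CPM, and a gap of 19.6 CPM separated them from the next mouse.

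The wider inhibitory pathway was followed in 47 further genes, of which 40 were tested. In Q140 minus WT striatum 11 of them rose and 8 fell, where 33% of all genes tested were called (17% up and 16% down). Of 9 further genes of transport and metabolism, 3 rose and 2 fell, among them Aldh1a1, for an enzyme of an alternative GABA synthesis route (-0.39, SE 0.11), Glul, for glutamine synthetase (-0.25, SE 0.04), and Slc38a1, for a glutamine transporter (0.21, SE 0.04). Of 8 genes of inhibitory synapse assembly, 1 rose and 4 fell, led by Mdga1, whose product binds neuroligin 2 (-0.29, SE 0.06), Shisa7, for an auxiliary GABA-A subunit (-0.19, SE 0.06), and Slitrk3, for an adhesion protein (0.19, SE 0.04). Of 11 receptor trafficking genes, 3 rose and 1 fell: Rdx, for radixin, which anchors alpha 5 receptors outside synapses, rose by 0.30 (SE 0.04), Arfgef2 rose by 0.14 (SE 0.02) and Akap5, for a kinase anchoring protein, fell by 0.26 (SE 0.04). Of 7 GABA-B effector genes, Kcnj3, for a potassium channel subunit, rose by 0.19 (SE 0.05) and Kctd16, for an auxiliary subunit, fell by 0.28 (SE 0.06). In Q140 x Msh3-/- minus Q140 striatum 6 of the 40 rose and 5 fell, where 16.3% of all genes were called (8.75% up and 7.57% down); this comparison shares the Q140 mice with the other. Of the genes named, Akap5 rose by 0.20 (SE 0.04), Kctd16 by 0.17 (SE 0.06) and Mdga1 by 0.21 (SE 0.06), while Rdx fell by 0.21 (SE 0.04), Slc38a1 by 0.18 (SE 0.04) and Arfgef2 by 0.11 (SE 0.02). The rest of the named genes did not pass, with 0.07 (SE 0.11) for Aldh1a1, 0.05 (SE 0.04) for Glul, 0.09 (SE 0.06) for Shisa7, -0.09 (SE 0.04) for Slitrk3 and 0.00 (SE 0.05) for Kcnj3.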

How the data were processed

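Striatal RNA had been sequenced from 48 mice, 8 for each of 6 genotypes, with a stranded TruSeq kit per the labels' protocols. The authors deposited raw counts per gene and FPKM. Alignment and counting tools, per the submitters' processing notes, were SAMtools 1.10, STAR 2.7.5c and HTSeq 0.12.3, with the builds mm10 and GRCm38; no source used here gives the counting settings. For the 28 genes the deposited FPKM were the count divided by the library total and multiplied by a factor fixed for each gene, to within a relative deviation of 1.9e-08, so they carry no scaling for composition.

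Genotypes came from the labels. Counts were tested with edgeR 4.0.16 (R 4.3.3): TMM scaling, filterByExpr with a minimum count of 10, which kept 19714 of 48795 genes, and a robust quasi-likelihood fit on genotype and sex with 41 residual degrees of freedom. Benjamini-Hochberg adjustment ran over all 19714 genes, with a threshold of 0.05, and standard errors came from the fold change and its F statistic. DESeq2 1.42.0, other scalings, filters, covariates and sample sets were alternatives. Replicate numbers run within sex and did not pair the mice. The fit was also run on simulated counts that gave every gene the same spread between mice and held no sex effect. That run does not show how the fit behaves for genes of unequal spread, as in these data.

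All 28 genes are described. Further pathway genes are named by the size of their change, at most 3 a list; for the list of other receptor subunits only counts were used, within the total over lists. The genes and lists were chosen with earlier results of these data known. Gene positions are from GENCODE M21 (GRCm38), promoters from RefSeq (GRCm38.p6).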

Additional observations from a re-analysis of the deposited data

Results flagged for a closer look

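In 13 of 168 sets of 8 mice (28 genes in 6 genotypes), the highest or lowest mouse lay far from the other 7; chance gives such a gap in about 1 set in 20, which is 8.4 of 168. In Msh3+/- mice a single male had the highest value for 4 genes, Gabra5 at 21.65 CPM, Gabre at 1.851 CPM, Gabrg1 at 32.46 CPM and Gabrq at 3.589 CPM; its summed cortical excitatory marker level was 124 CPM, against a median of 48.6 CPM in that genotype. Other Msh3+/- mice had the highest Abat (734.9 CPM) and Slc6a11 (197.1 CPM). In Q140 x Msh3+/- mice, Gabre reached 1.324 CPM in a male whose pallidal, thalamic and septal marker sum was 146 CPM, against a median of 121 CPM, and Gad2 reached 592.7 CPM in a female. The part of these cell type markers in the values was not tested.

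Low values were Gabra3 at 28.81 CPM in 1 Q140 x Msh3-/- mouse, 1 of the 4 libraries that stood apart, and at 29.64 CPM in 1 WT mouse, Gabra5 at 14.11 CPM in 1 WT mouse, and Slc32a1 at 242.6 CPM in 1 Q140 mouse. Glra2 was high, at 10.91 CPM, in 1 WT mouse.

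The Q140 effect on Gabrd differed between the Msh3-/- and the unaltered Msh3 background: the interaction was 0.4375 on the log2 scale (SE 0.06, edgeR adjusted p = 4.18e-07).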

How the results depend on the processing

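Of 9 alternatives, 7 were planned and 2, without the 4 libraries that stood apart and with name prefix as a term, were chosen after seeing the data. No direction reversed among the called genes. Scaling by library totals moved the count of called genes to 14 in Q140 minus WT striatum (from 6), 4 in Q140 x Msh3-/- minus Q140 (from 2) and 11 in Q140 x Msh3+/- minus WT (from 4); the other counts between genotypes stayed within 1.5 times. The same scaling moved the split of higher and lower calls over all genes to 4506 and 1351 (from 2120 and 2127) in Q140 x Msh3+/- minus Msh3+/-, 1252 and 623 (from 791 and 758) in Q140 x Msh3-/- minus Msh3-/-, 1364 and 486 (from 574 and 665) in Q140 x Msh3-/- minus WT, 252 and 679 (from 452 higher and a smaller number lower) in Q140 x Msh3-/- minus Q140 x Msh3+/-, 537 and 1194 (from 806 and 407) for the interaction with Msh3-/-, and 281 and 686 (from 514 and 325) in females minus males. The sex comparison, with 1 gene, had 3 with DESeq2, 0 without the filter on low counts and 0 with plate column as a term. The calls of Gabrd in Q140 minus WT were kept under all 9. With the replicate block, Q140 minus WT had 6 genes and Q140 x Msh3+/- minus WT had 5, Gabra5 being added; no other call between genotypes changed. Replicate numbers are nested in sex, so that the block gave no sex comparison, and same-numbered mice did not deviate together (median correlation -0.028 over 120 pairs, 7 of them over 0.1). The single-sample check by leaving out 1 mouse was not run with 8 mice per genotype. Genes below 2 CPM (Gabre, Gabrq) had standard errors of 0.25 to 0.42 in Q140 minus WT striatum, which limits what could be detected there.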

Other observations

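Cut at the 2 largest gaps, Gabra2 levels fell into a low group of 4 mice and a group of 43 from 105 to 163 CPM, with 1 Msh3+/- mouse between at 96.1 CPM. The group of 43 was itself not even. It held a gap of 8.33 CPM, from 123 to 131 CPM, nearly as wide as the 8.99 CPM above the single mouse. The low mice were 1 Q140, 1 Q140 x Msh3-/- and 2 WT mice, at 63.3, 72.3, 71.1 and 76.4 CPM. Their genotypes at Gabra2 itself are not given in the labels.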
